A study of Mus musculus with 12 samples.

Results

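The response of mouse colon epithelium to interleukin-1 beta (IL-1b) on its own was measured by comparing 3 RNA-seq libraries of IL-1b-treated colonoids with 3 of untreated colonoids, chosen by their labels from the 12 libraries of the series, over all genes. Colonoids are cultures of colonic epithelium; here crypts from C57BL/6 mouse colons had been plated overnight in Matrigel with EGF and 20% L-WRN conditioned medium. IL-1b, a recombinant mouse protein, was given at 100 ng/mL for 12 h to the treated cultures, and the unstimulated cultures received no cytokine. The other 6 libraries came from cultures with IL-22 at 1 ng/mL, 3 without and 3 with the same IL-1b dose. They entered the model fit and are otherwise used below only where they bear on IL-1b. The labels number the replicates 1 to 3 without tying them to separate mice or cultures, and the p-values therefore reflect only how these libraries vary, which may be technical. The comparison was made with all 6 libraries and again without IL-1b replicate 1, which held transcripts of leukocytes.

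IL-1b binds the receptor chain IL1R1, which pairs with IL1RAP and recruits MYD88 and IRAK kinases, and the signal reaches NF-kB and the MAP kinase to AP-1 path. In epithelia this path is known for inducing chemokines, antimicrobial proteins and enzymes that make reactive oxygen and nitric oxide. IL1R2, IL1RN and SIGIRR restrain it.

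Library totals lay between 5225101 and 5804033 counts in the 6 libraries, and 13987 of the 35869 gene symbols in the table had enough counts to be tested. Levels are given as counts-per-million values (CPM) over the scaled library total, and changes as log2 fold changes with the standard error (SE) of the fit. A gene was called when its adjusted p (edgeR quasi-likelihood test, Benjamini-Hochberg over all genes tested) was under 0.05. All 18 epithelial markers were detected, and their summed level was 4625 to 5020 CPM with IL-1b and 4888 to 5157 CPM without. Of 25 macrophage and dendritic cell markers, 12 had no count in any untreated library and 9 in any IL-1b library, and their summed level was 234 to 278 CPM without and 273 to 289.8 CPM with IL-1b. Adgre1, C1qb, C1qc and Cd163 of this list had no count in the 6 libraries, while all 5 members tested had log2 fold changes above 0 (median 0.16, none called). Of all 13987 genes tested, 6698 had a log2 fold change above 0. Of 25 neutrophil and mast cell markers, 17 had no count without and 14 with IL-1b, and Mpo, Retnlg and Cpa3 were at 0 in all 6.

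IL-1b raised 10 genes and lowered none: Lcn2, Lbp, Nos2, Ccl20, C3, Duoxa2, Cd177, Duox2, Tnf and Clca4b. These were 0.0715% of the genes tested, against 0% lower. At an unadjusted p under 0.05 there were 1338 genes, 813 higher and 525 lower, where 699 would have p-values that low if no gene differed. DESeq2, run on the same libraries, called 22 genes higher (0.157%) and 10 lower (0.0715%), and all 10 edgeR calls were among them. Without IL-1b replicate 1, 9 of 14155 genes were higher (0.0636%) and none lower (0%). At an unadjusted p under 0.05 there were then 767 genes, where 708 would have p-values that low if no gene differed. DESeq2 then called 15 higher and 2 lower. The 9 comprised 8 of the 10 genes, without Tnf and Clca4b, and Ceacam10.

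**Figure D1:**
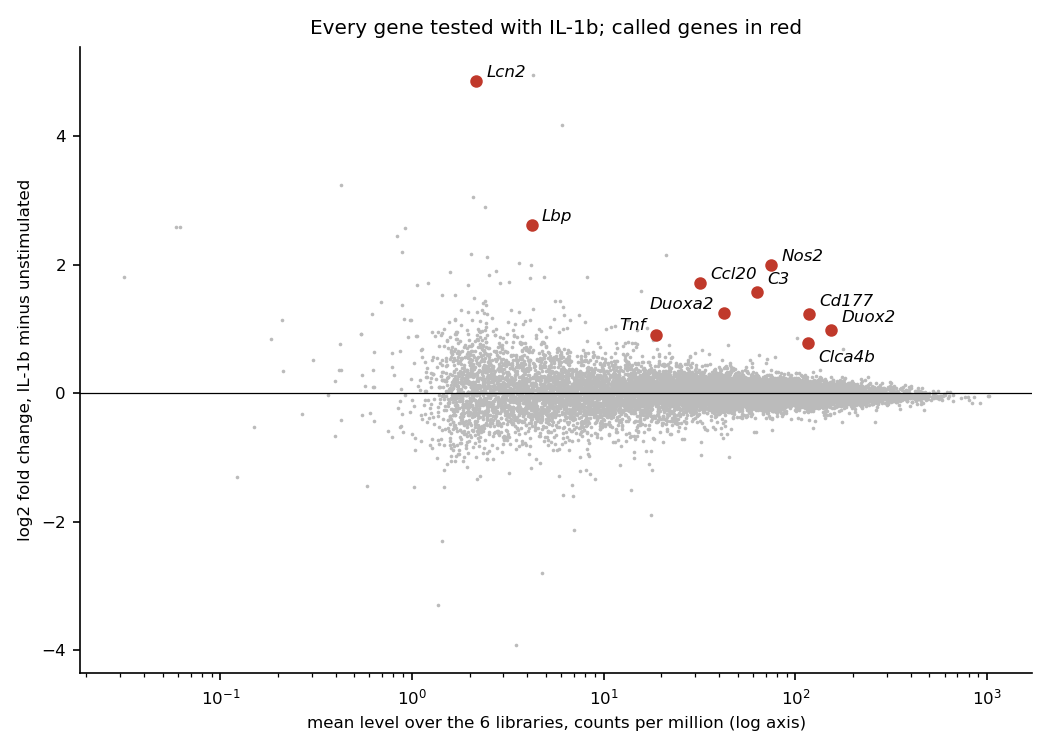
Each point is 1 of the 13987 genes tested, with its mean level over the 3 IL-1b and 3 unstimulated libraries in CPM on the horizontal log axis and its log2 fold change with IL-1b on the vertical axis. The 10 called genes, in red, all lie above 0, from 0.78 (Clca4b) to 4.86 (Lcn2).

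The promoter windows of the called genes Ccl20, Lcn2 and Duoxa2, and of Nox1, which DESeq2 but not edgeR called, are shown. These windows were picked because they carry the letters most often linked to the IL-1 path. They run from 250 bases before to 50 bases after the transcript start, 5′ to 3′ on the gene's strand, from RefSeq (build GRCm38.p6). Capitals mark matches on either strand to the kappaB consensus in Ccl20 and Nox1, to the C/EBP motif TTNNGCAA in Lcn2 and to the AP-1 motif TGANTCA in Duoxa2.
Ccl20, chr1:83116516-83116815, plus strand: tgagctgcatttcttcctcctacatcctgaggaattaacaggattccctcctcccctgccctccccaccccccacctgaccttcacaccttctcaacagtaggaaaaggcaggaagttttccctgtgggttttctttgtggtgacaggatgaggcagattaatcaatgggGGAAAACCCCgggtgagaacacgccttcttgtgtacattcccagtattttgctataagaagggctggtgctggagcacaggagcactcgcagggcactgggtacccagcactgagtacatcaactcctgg
Nox1, chrX:134111805-134112104, minus strand: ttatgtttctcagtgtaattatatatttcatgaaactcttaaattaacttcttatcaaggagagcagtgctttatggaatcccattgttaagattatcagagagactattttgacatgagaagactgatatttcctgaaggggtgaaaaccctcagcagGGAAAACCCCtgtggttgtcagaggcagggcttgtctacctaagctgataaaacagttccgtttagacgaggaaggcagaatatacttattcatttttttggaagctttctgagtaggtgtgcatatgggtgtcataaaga
Lcn2, chr2:32387690-32387989, minus strand: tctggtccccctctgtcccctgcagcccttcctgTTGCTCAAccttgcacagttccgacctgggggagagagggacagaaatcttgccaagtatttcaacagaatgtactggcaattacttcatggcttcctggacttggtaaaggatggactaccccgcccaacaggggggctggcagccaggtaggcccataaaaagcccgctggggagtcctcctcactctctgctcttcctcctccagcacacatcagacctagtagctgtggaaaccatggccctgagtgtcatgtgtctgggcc
Duoxa2, chr2:122298650-122298949, plus strand: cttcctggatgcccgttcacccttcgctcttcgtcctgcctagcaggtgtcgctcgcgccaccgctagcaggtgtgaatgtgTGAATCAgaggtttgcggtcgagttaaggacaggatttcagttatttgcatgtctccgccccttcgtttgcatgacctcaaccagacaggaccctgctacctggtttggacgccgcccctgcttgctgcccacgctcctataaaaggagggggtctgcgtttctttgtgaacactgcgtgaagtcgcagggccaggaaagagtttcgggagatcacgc
Ccl20 and Nox1 shared the same 10 kappaB letters, GGGGTTTTCC on the opposite strand, with the match beginning at base -80 in Ccl20 and at base -91 in Nox1 relative to the start. Of the 8 called genes that had a window, 1 held a kappaB match (Ccl20), 1 an AP-1 match (Duoxa2) and 2 a C/EBP match (Lcn2 and C3). Cd177, Clca4b, Duox2 and Tnf held none of these matches, and Nos2 and Lbp had no window. Over all 27025 genes with a window, 5.14% held a kappaB match, 8.97% an AP-1 match and 12.2% a C/EBP match. Over their 32851 windows the shares were 4.51%, 7.81% and 10.8%. The interferon-stimulated response element, written as 2 copies of GAAA with any 2 bases between them, was searched as well and matched no window of the called genes or of the genes named from DESeq2 or from the comparison without IL-1b replicate 1, against 3.44% of all windows. Of the 12 further genes that DESeq2 alone placed higher, the 8 counted here are those named by the rule and not called without IL-1b replicate 1, and 4 of them held a kappaB match: Cxcl1 (base -71), Casp4, Nox1 and Noxa1 (base -249). Samd12, Ecscr and Gm39584, also placed higher by DESeq2 alone, were not counted. The 8 were named largely as members of chosen lists of NF-kB genes, chemokines, oxidases and leukocyte markers. Beside the 5.14% of all genes, the 4 of 8 therefore carries no conclusion about kappaB sites. The motifs were chosen after the called genes were seen. A match is a description of the letters, and no binding was measured here.

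Genes of nitric oxide and reactive oxygen production gave 3 of the 10 calls. Nos2 (chromosome 11, 78920787 to 78960254), the inducible nitric oxide synthase, stood at 41.9, 22.2 and 25.8 CPM in unstimulated replicates 1 to 3 and at 108, 121 and 131 CPM with IL-1b. Its lowest treated library was above its highest untreated one, and the change was 2.00 ± 0.21 (edgeR adjusted p = 0.00143). Duox2 (chromosome 2, 122279247 to 122298449), the dual oxidase that releases hydrogen peroxide at the apical surface, measured 124, 79.8 and 105 CPM without and 185, 217 and 207 CPM with IL-1b. The groups did not overlap, and the change was 0.98 ± 0.13 (adjusted p = 0.00701). Duoxa2 (chromosome 2, 122298900 to 122302885), which carries DUOX2 to the cell surface, went from 26.7, 19.6 and 29.4 to 49.4, 66.0 and 63.7 CPM, a change of 1.24 ± 0.16 (adjusted p = 0.00324). Duox2 and Duoxa2 are head-to-head neighbours with 450 bases between them, and they rose together in all 3 treated libraries. Part of the Duoxa2 exons overlaps Duoxa1, and reads there could belong to either gene.

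The NOX1 oxidase of colon epithelium, which makes superoxide, needs the organizer NOXO1, the activator NOXA1, the membrane partner CYBA and RAC1. Its catalytic subunit gene Nox1 (chromosome X) was at 74.8, 66.6 and 76.0 CPM without IL-1b and at 121, 139 and 134 CPM with it. The libraries did not overlap, but the change of 0.86 ± 0.17 did not pass the edgeR test (adjusted p = 0.134), whereas DESeq2 gave an adjusted p of 0.0015. Noxa1 was at 62.7, 60.7 and 50.8 against 83.6, 80.1 and 86.8 CPM, a difference of 0.52 ± 0.10 with adjusted p = 0.134 by edgeR and 0.0096 by DESeq2. Cyba was at 50.6, 47.1 and 45.1 against 62.9, 61.5 and 59.0 CPM, a difference of 0.36 ± 0.07 (edgeR adjusted p = 0.126). Noxo1 and Rac1 were nearly level, with differences of 0.07 ± 0.05 and -0.05 ± 0.05. Nox1 shares exon bases with Cstf2, and Noxa1 with Entpd8.

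Over the whole list of 25 oxidase and nitric oxide genes, 16 were tested, 3 were called higher by edgeR and 5 by DESeq2, and none was called lower. Of all genes tested, edgeR called 0.0715% higher and 0% lower, and DESeq2 0.157% and 0.0715%. All 3 treated libraries lay above all 3 untreated ones for 9 of the 16, and below for none. Over all genes tested, such separation was seen upward for 8.89% and downward for 7.85%. The median log2 fold change of the 16 was 0.44, against -0.01 over all genes tested, and it was 0.44 again without IL-1b replicate 1. Per kilobase of exon, mean levels went from 6.79 to 27.1 CPM for Nos2, from 15.2 to 30.0 CPM for Duox2 and from 21.9 to 39.8 CPM for Nox1. On that scale Nos2 was the lowest of these 3 genes in unstimulated colonoids, and with IL-1b it came close to Duox2. Rac2, the leukocyte relative of RAC1 on the same list, fell below the expression filter. It had 58, 7 and 8 counts with IL-1b and 1, 0 and 1 without.

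Antimicrobial and acute-phase proteins gave 3 called genes of 28 tested, against 0.0715% of all genes called higher. A gene can be on more than 1 of the lists, so calls counted by list overlap. Lcn2 (chromosome 2, 32384633 to 32388252), lipocalin-2, which withholds iron from bacteria by binding siderophores, had 0, 0 and 2 counts in unstimulated replicates and 16, 22 and 33 counts with IL-1b, or 2.94, 4.14 and 5.49 CPM. Its ratio of summed counts was 34.7, with an exact 95% counting interval of 9.25 to 292, which covers counting error only. Lcn2 therefore went from near the limit of detection to a level that was still low (adjusted p = 0.00379). Lbp (chromosome 2, 158306493 to 158332852), the lipopolysaccharide-binding protein of the acute phase, measured 1.43, 1.09 and 0.948 CPM without and 5.15, 9.97 and 6.65 CPM with IL-1b. The change was 2.62 ± 0.29 (adjusted p = 0.00143), and the lowest treated library was IL-1b replicate 1.

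Cd177 (chromosome 7, 24743983 to 24760311), known as a neutrophil surface protein, was well expressed in the untreated colonoids, at 77.5, 63.3 and 70.4 CPM, and stood at 123, 195 and 175 CPM with IL-1b. The change was 1.22 ± 0.15 (adjusted p = 0.00324), again with IL-1b replicate 1 lowest of the treated libraries. Cd177 is itself on the list of 25 neutrophil and mast cell markers, whose summed level was 210 to 234 CPM without and 276 to 346 CPM with IL-1b. The other 24 summed to 143, 146 and 164 CPM without and 152, 151 and 146 CPM with IL-1b, which overlap. Among them S100a9 had 1, 0 and 0 counts without and 1, 9 and 3 with IL-1b. Its highest untreated and lowest treated libraries thus tied at 1 count, and only the scaling to CPM set them apart. Csf3r had 1 count in the 6 libraries together. The part of such cells in the Cd177 level was not tested. Ceacam10 (chromosome 7, 24777206 to 24784657), a secreted member of the carcinoembryonic antigen family, lies 16894 bases from Cd177. It measured 10.7, 10.4 and 12.3 CPM without and 14.9, 26.7 and 25.4 CPM with IL-1b. Its change of 1.01 ± 0.22 did not pass with all libraries (adjusted p = 0.163) and was 1.23 ± 0.19 without IL-1b replicate 1 (adjusted p = 0.0294). Ang4, an antimicrobial ribonuclease, was at 34.0, 34.7 and 33.8 against 50.0, 43.5 and 53.4 CPM, without overlap, but did not pass (0.52 ± 0.11, adjusted p = 0.156).

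No other member of the antimicrobial list was called. Saa3, a serum amyloid A protein, was at 21.4, 23.8 and 3.79 CPM without and at 30.0, 26.7 and 25.9 CPM with IL-1b (0.74 ± 0.34, adjusted p = 0.511), separated upward with 1 low untreated library. Its relative Saa1 differed by 0.03 ± 0.08, and Pigr, the receptor that carries IgA across epithelium, by 0.01 ± 0.05. The calprotectin subunits S100a8 and S100a9 had summed counts of 0 and 1 without and 2 and 13 with IL-1b. The S100a9 ratio was 12.7 (1.91 to 540), and it did not pass the test (adjusted p = 0.476). IL-1b replicate 2 gave 9 of the 13 counts, and without it the ratio was 5.72 (0.566 to 282). Reg3b and Reg3g, antibacterial lectins, were seen mainly in 1 untreated library: Reg3b was at 19.4, 0.182 and 0 CPM without and at 0.184, 0.941 and 0.166 CPM with IL-1b. The list had a median of 0.13 (0.06 without IL-1b replicate 1). Of its 28 members tested, 7 were separated upward and 1 downward, against 8.89% and 7.85% of all genes tested. Without IL-1b replicate 1 these were 12 and 2 of the same 28, against 11.9% and 11% of all genes tested.

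Among chemokines, Ccl20 (chromosome 1, 83116766 to 83119167), the ligand of CCR6 that attracts lymphocytes and dendritic cells, was the called gene. Its levels were 14.97, 16.5 and 12.9 CPM without and 48.9, 44.6 and 51.9 CPM with IL-1b. The spread within each group was small beside the difference, and the change was 1.71 ± 0.19 (adjusted p = 0.00143). Cxcl1, a chemokine that attracts neutrophils, was lower in abundance and did not pass by edgeR: it was at 2.49, 2.91 and 4.17 against 8.82, 6.58 and 10.3 CPM (1.43 ± 0.31, adjusted p = 0.159), and DESeq2 gave an adjusted p of 0.0248. Cxcl5 and Cxcl2 overlapped between the groups, with IL-1b replicate 1 highest: Cxcl5 stood at 8.73, 4.001 and 8.72 CPM without and at 22.6, 6.02 and 15.1 CPM with IL-1b. Ccl28, which attracts IgA-secreting cells, was at 200, 221 and 233 against 262, 262 and 255 CPM, a difference of 0.25 ± 0.08 (adjusted p = 0.345). Of 16 chemokines tested, 1 was called, against 0.0715% of all genes called higher. Of the same 16, 4 were separated upward and 0 downward, against 8.89% and 7.85% of all genes tested. The median was 0.23 (0.32 without IL-1b replicate 1).

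C3 (chromosome 17, 57203970 to 57228136), the central complement component, was at 42.8, 26.6 and 26.0 CPM without and at 67.3, 111 and 106 CPM with IL-1b. The change was 1.57 ± 0.20 (adjusted p = 0.00324), with the smallest step between unstimulated replicate 1 and IL-1b replicate 1. Cfb, the factor B protease that works with C3 in the alternative pathway, was level: 151, 160 and 146 against 142, 159 and 143 CPM (-0.04 ± 0.08). C3 was the only call among 11 complement genes tested, whose median was 0.04, and 0.0715% of all genes were called higher.

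Tnf (chromosome 17, 35199381 to 35202007), the inflammatory cytokine TNF, was the only call among 18 cytokine genes tested, against 0.0715% of all genes called higher. It stood at 12.1, 11.1 and 15.9 CPM without and at 24.4, 24.3 and 24.8 CPM with IL-1b, a change of 0.91 ± 0.15 (adjusted p = 0.0300). Its call was lost without IL-1b replicate 1 (adjusted p = 0.107), although the change there was 0.92 ± 0.17. Csf1, the macrophage growth factor, was at 0.713, 1.09 and 1.52 against 4.41, 2.82 and 4.66 CPM and did not pass (adjusted p = 0.178). Csf2 had 0 counts without and 6 with IL-1b, and Il6 had 0 and 2, so neither could be read at this depth. Il33 did not differ beyond its spread (0.70 ± 0.70).

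Clca4b (chromosome 3, 144910921 to 144932529), of the family of secreted calcium-activated chloride channel regulators, was the smallest called change. It was at 97.8, 63.5 and 95.8 CPM without and at 143, 150 and 148 CPM with IL-1b, a change of 0.78 ± 0.12 (adjusted p = 0.0234). Without IL-1b replicate 1 the change was 0.80 ± 0.14 and the adjusted p 0.0844. Its cluster on chromosome 3 gave a mixed picture. Clca3b, Clca3a1 and Clca3a2 were also separated upward without passing, by 0.69 ± 0.18, 1.30 ± 0.31 and 1.35 ± 0.44. Clca1, the family member of goblet cells, and Clca4a, next to Clca4b, were level at -0.01 ± 0.07 and -0.02 ± 0.10. Members of this family are similar in sequence, and how reads that fit several copies were counted is not given in the sources used here.

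**Figure D2:**
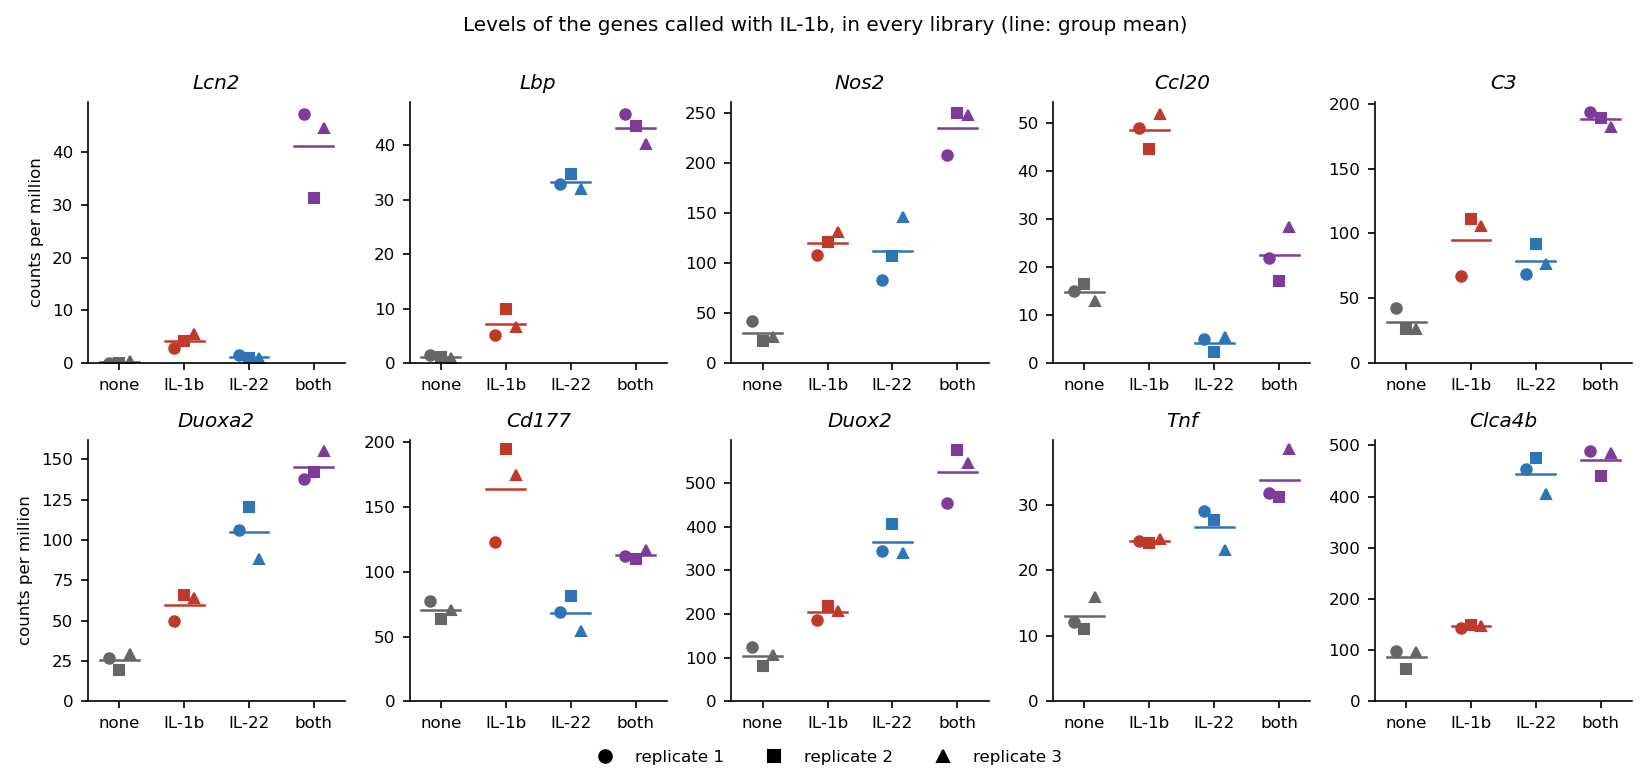
Each panel shows 1 called gene, with its level in CPM in every library of the 4 groups (none, IL-1b, IL-22 and both cytokines), the group mean as a line and the replicate number as the symbol. In all 10 panels the 3 IL-1b points lie above the 3 untreated points, and replicate 1 is the lowest of the IL-1b points in 8 panels, all but Ccl20 and Tnf.

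None of the genes that carry the IL-1 signal was called. Il1r1, the signalling receptor, was at 16.2, 13.5 and 9.29 CPM without and at 8.27, 9.41 and 9.31 CPM with IL-1b (-0.53 ± 0.31, adjusted p = 0.586). Its partner Il1rap differed by 0.12 ± 0.15, the receptor antagonist Il1rn by 0.05 ± 0.08 and the inhibitory receptor Sigirr by -0.03 ± 0.07. The decoy receptor Il1r2 had counts in 1 of the 6 libraries, IL-1b replicate 1, at 0.551 CPM. Among adaptors, Myd88 differed by 0.04 ± 0.08 and Traf6 by -0.13 ± 0.07. None of 10 ligand and receptor genes and none of 20 adaptor and kinase genes was called by edgeR or DESeq2, with medians of 0.12 and -0.07. Members ranged from -0.53 to 0.87 in the first list and from -1.03 to 0.08 in the second. Of the 20, 6 had a log2 fold change above 0, against 6698 of all 13987 genes tested. Of the same 20, 4 were separated downward and 0 upward, against 7.85% and 8.89% of all genes tested.

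The NF-kB list likewise gave 0 calls of 33 by edgeR, and 3 by DESeq2, all higher. Of all genes tested, edgeR called 0.0715% higher and DESeq2 0.157%. The 3 were Zc3h12a, the ribonuclease that degrades inflammatory mRNA, Birc3, an inhibitor of apoptosis, and Casp4, the caspase that senses cytosolic lipopolysaccharide. Without IL-1b replicate 1, DESeq2 called only Zc3h12a of them. Zc3h12a was at 71.6, 63.7 and 53.7 against 86.6, 103 and 90.6 CPM (0.57 ± 0.10; adjusted p = 0.0831 by edgeR and 0.00142 by DESeq2). Birc3 differed by 0.36 ± 0.08 and Casp4 by 0.51 ± 0.11, with edgeR adjusted p of 0.156 and 0.159. The feedback inhibitors were separated upward by small steps that did not pass: Tnfaip3 was at 141, 142 and 147 against 164, 160 and 162 CPM (0.17 ± 0.05), and Nfkbia at 99.1, 89.8 and 91.8 against 112, 107 and 109 CPM (0.22 ± 0.08). Larger but noisier differences were seen for Tnfaip2, at 7.48, 4.18 and 11.8 against 25.4, 25.8 and 19.6 CPM, and for the adhesion molecule Icam1, at 0.356, 0.364 and 0.948 against 2.21, 1.69 and 1.66 CPM. Their adjusted p was 0.294. The subunit genes Nfkb1, Nfkb2, Rela and Relb stayed between -0.11 and 0.02. In all, 10 of the 33 were separated upward and 0 downward, against 8.89% and 7.85% of all genes tested, and the median was 0.04. Without IL-1b replicate 1, 11 were above all untreated libraries and 1 below, against 11.9% and 11% of all genes tested.

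**Figure D3:**
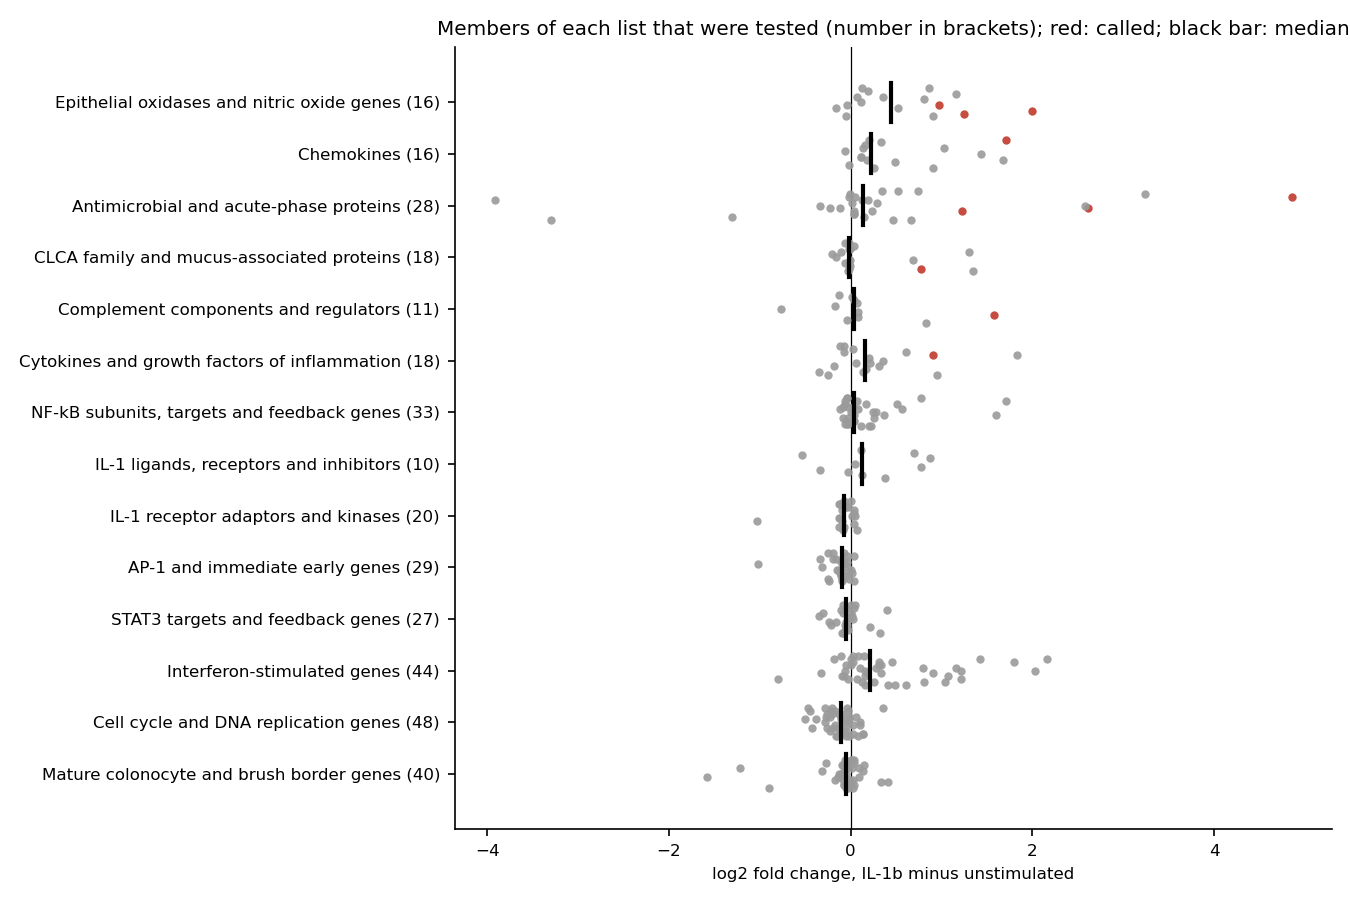
Each row is a gene list with the number of members tested in brackets, and each point is a member's log2 fold change with IL-1b. Red points were called, black bars are list medians, and the oxidase list has the highest median of those drawn, 0.44, while the adaptor, AP-1 and cell cycle lists have medians of -0.07, -0.10 and -0.11.

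AP-1 and immediate early genes gave no call by edgeR or DESeq2 among 29 tested at 12 h. A log2 fold change above 0 was seen for 4 of the 29, against 6698 of all 13987 genes tested, and the median was -0.10. Separated downward were 5 and upward 0, against 7.85% and 8.89% of all genes tested. Fos and Jun differed by -0.10 ± 0.09 and -0.17 ± 0.11, Fosb by -1.02 ± 0.31 (adjusted p = 0.349). Cell cycle and replication genes had a median of -0.11 over 48 tested, which was -0.04 without IL-1b replicate 1, and none was called by either tool. Mki67, the proliferation marker, was at 183, 178 and 202 CPM without and at 131, 182 and 155 CPM with IL-1b, lowest in replicate 1. Goblet cell, colonocyte, stem cell and tight junction lists had medians between -0.05 and -0.01 with no call by either tool. Muc2, the gel-forming mucin, stood at 444, 422 and 409 against 366, 406 and 336 CPM, separated downward but not called (-0.20 ± 0.08, adjusted p = 0.458).

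Further lists gave little. STAT3 targets (27 tested), MHC antigen presentation genes (28), unfolded protein response genes (30), heat-shock genes (21) and proteases (20) had no call by edgeR or DESeq2, and their medians lay between -0.05 and 0.05. Among 36 cell death and inflammasome genes DESeq2 called Casp4 higher and Gsdmc2, a gasdermin of colon epithelium, lower, and edgeR called none. Of all genes tested, DESeq2 called 0.157% higher and 0.0715% lower. Gsdmc2 was at 149, 157 and 131 CPM without and at 116, 104 and 80.5 CPM with IL-1b (-0.55 ± 0.11, edgeR adjusted p = 0.156), and its neighbour in the family Gsdmc3 at 105, 114 and 105 against 92.3, 86.3 and 66.7 CPM. Gasdermin C copies are alike in sequence, so reads may be shared between them. Among uncalled genes with the smallest p were Mlxipl, the carbohydrate-response factor ChREBP, at 54.0, 52.9 and 44.8 against 34.9, 36.7 and 35.1 CPM, and Uox, urate oxidase, at 0.713, 1.27 and 1.52 against 3.86, 3.20 and 5.99 CPM. Both were separated between the groups, downward and upward, with adjusted p of 0.159 and 0.151.

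Genes that DESeq2 alone placed lower with IL-1b were 10, and none passed edgeR. Cyp2w1, a cytochrome P450, was at 14.3, 8.002 and 2.84 CPM without and at 0.919, 0.752 and 1.83 CPM with IL-1b (-2.80 ± 0.55; edgeR adjusted p = 0.126, DESeq2 0.0096). Thbs1, the matrix glycoprotein thrombospondin-1, was at 25.5, 17.6 and 14.6 against 9.92, 8.28 and 10.3 CPM (edgeR adjusted p = 0.146, DESeq2 0.0403). Gpam, which starts glycerolipid synthesis, was at 59.5, 54.2 and 42.1 against 28.7, 30.9 and 36.3 CPM (edgeR adjusted p = 0.115, DESeq2 0.00892). For these 3 genes unstimulated replicate 3 was the lowest untreated library. The others were Leng8, Klc1, Tmem174, Gsdmc2, Malat1, Firre and 5330417C22Rik, the last of which lay outside the rule for named genes and was added with its values known. Without unstimulated replicate 3, edgeR called 28 genes, 12 higher and 16 lower, and Cyp2w1, Thbs1 and Gpam were among the lower ones. Without IL-1b replicate 1, DESeq2 called only Leng8 and Gsdmc2 lower, so these 3 genes were then called by neither tool at the same expression filter rule.

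IL-1b replicate 1 stood apart in content. It had 57 genes with 20 or more counts and at least 5 times the highest of the other 11 libraries, limits chosen after this library had been seen to differ, where each other library had 0 to 2 such genes, and 12 of the 57 were on the leukocyte or lymphocyte lists. Ptprc, the CD45 antigen of leukocytes, had 104, 20 and 12 counts with IL-1b and 0, 2 and 2 without. Some T cell genes followed: Cd4 had 51, 7 and 7 counts, Thy1 57, 7 and 7, Cd3g 26, 1 and 7, and each had 0 in all untreated libraries. Over the untreated group this put the 3-library Cd4 level at least 21.2-fold higher with IL-1b, and at least 6.75-fold higher without replicate 1, where the bound takes 3 counts for the untreated libraries together. These T cell genes were thus counted in IL-1b replicates 2 and 3 too, at 1 to 7 counts per library. With IL-22 in the medium Cd4 had 0 to 6 counts per library. Over the 22 pan-leukocyte markers the summed level was 237 CPM in replicate 1, 120 and 113 CPM in replicates 2 and 3 and 88.9 to 99.3 CPM without IL-1b. The 40 lymphocyte markers summed to 313 CPM in replicate 1. They summed to 214 and 204 CPM in replicates 2 and 3, and to 211 to 216 CPM without IL-1b. The sum hides the markers with few counts. Of the 40, 22 had no count in any untreated library, and 5 had none in any IL-1b library, replicate 1 included. Of the 6 lymphocyte markers tested, none was called, 1 was separated upward and 1 downward, against 8.89% and 7.85% of all genes tested. In bulk RNA, fewer or more cells of a type and a change of RNA per cell cannot be told apart.

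Some of the transcripts of replicate 1 were on none of the leukocyte lists. Folh1, a glutamate carboxypeptidase, had 142 counts there and 0 in replicates 2 and 3 and in every untreated library. Ackr3, a scavenging chemokine receptor, had 73, 1 and 0 counts with IL-1b, Kcnj3, a potassium channel, 71, 1 and 1, and Prkd1, a protein kinase, 62, 0 and 0. By a stricter count, 15 genes had 20 or more counts in this library and at most 3 in each of the other 11, against 0 or 1 in the others. These genes fell below the expression filter. With no filter beyond 1 count, edgeR called 156 genes higher and 56 lower, and of the 156 higher, 21 were on the leukocyte, lymphocyte, macrophage or neutrophil lists and 41 were among the 57 genes of replicate 1. Without replicate 1 the higher calls were 78, with 8 on those lists, and Ptprc, Cd4 and Thy1 were still called. The part that such transcripts play in the called genes was not tested. IL-1b replicate 1 was the lowest treated library for 8 of the 10 called genes, all but Ccl20 and Tnf.

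**Figure D4:**
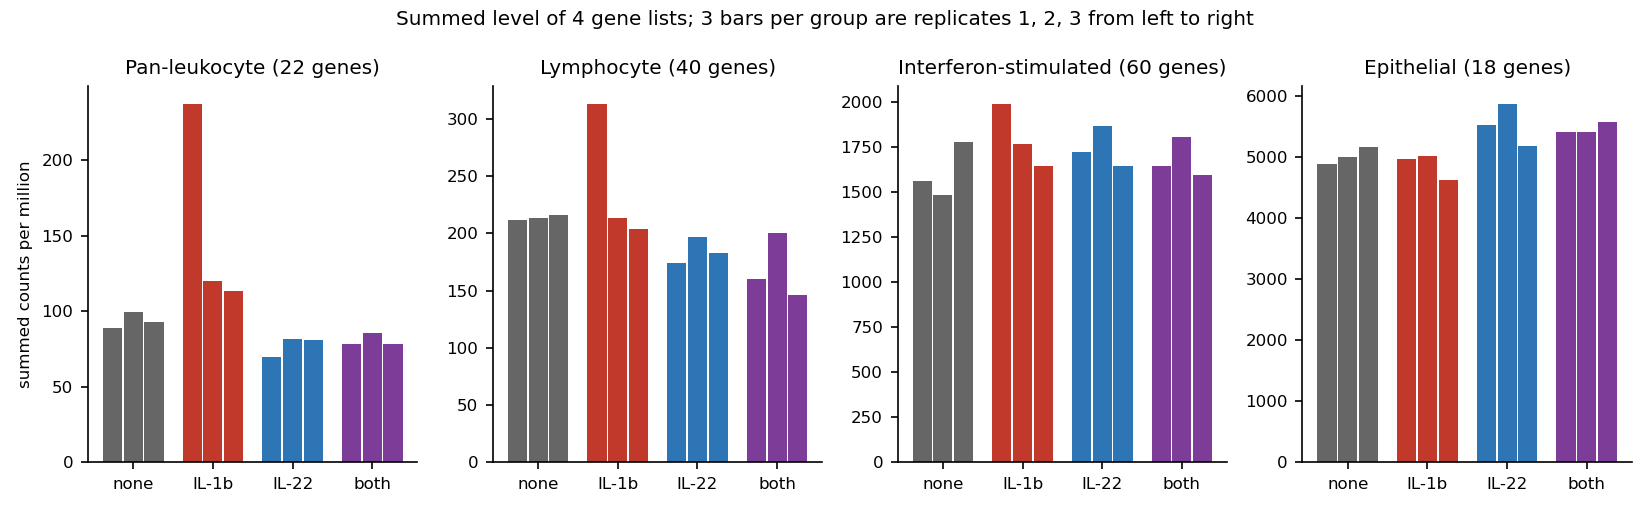
Bars give the summed level in CPM of 4 gene lists in each library, 3 bars per group for replicates 1 to 3 from left to right. The first IL-1b bar stands out in the pan-leukocyte panel (237 CPM) and the lymphocyte panel (313 CPM), and the epithelial panel is nearly level between the IL-1b and untreated groups.

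Interferon-stimulated genes were also highest in that library. None of 44 tested was called by edgeR or DESeq2, and 12 were separated upward and 0 downward, against 8.89% and 7.85% of all genes tested. The median of 0.22 was 0.12 without IL-1b replicate 1. Without it 12 were above all untreated libraries and 1 below, where 11.9% and 11% of all genes tested were. Summed over 60 genes, the level was 1989 CPM in replicate 1, 1768 and 1643 CPM in replicates 2 and 3, and 1483 to 1780 CPM without IL-1b. Zbp1, a sensor of unusual nucleic acids, was at 12.3 CPM in replicate 1 and at 4.89 and 5.49 CPM in the others, against 2.14 to 5.12 CPM untreated. Irgm1, an immunity-related GTPase, did not depend on it: it was at 49.4, 46.7 and 52.3 against 63.0, 61.7 and 61.9 CPM (0.33 ± 0.08, adjusted p = 0.178).

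The same cytokine dose in the other 6 libraries, IL-1b with IL-22 against IL-22 alone, gave the 10 genes the same direction. These 6 libraries also entered the fit of the spread behind the p-values for IL-1b alone, so the 2 comparisons are not independent. With only the libraries compared, 11 genes were called for IL-1b alone, 8 of them among the 10. IL-1b added to IL-22 called 9 genes higher (0.0643%) and 2 lower (0.0143%), and Lcn2, Nos2, Ccl20 and C3 were in both sets of higher genes. Among the 500 genes with the smallest p for IL-1b alone, 407 (81.4%) had the same sign with IL-22 present, against 61.1% of all genes tested. Ccl20 rose by 2.38 ± 0.25 over IL-22 alone (adjusted p = 0.00118), Nos2 by 1.07 ± 0.18 (0.046) and C3 by 1.25 ± 0.17 (0.0151). Duox2 and Duoxa2 differed by 0.53 ± 0.12 and 0.47 ± 0.13, which did not pass (adjusted p = 0.116 and 0.195). Clca3a1 and Clca3b, separated but not called with IL-1b alone, passed here at 1.77 ± 0.28 and 1.12 ± 0.18 (adjusted p = 0.0335 and 0.0353). The interferon list had a median of -0.10 here, and the oxidase list 0.39.

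For Lbp and Clca4b the value with IL-22 was small: 0.38 ± 0.14 and 0.09 ± 0.10, against 2.62 ± 0.29 and 0.78 ± 0.12 without. The test of the difference between the 2 settings called no gene by edgeR (0%). It gave 705 genes at an unadjusted p under 0.05, where 699 would have p-values that low if no gene differed. Lbp had the difference -2.24 ± 0.33 (adjusted p = 0.124), which passed without IL-1b replicate 1 (adjusted p = 0.0189) and by DESeq2 (0.00138). DESeq2 called 4 genes lower, Lbp, Clca4b (0.0494), Adh6a and Sgk1, the last 2 of them chosen after their values were seen.

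**Figure D5:**
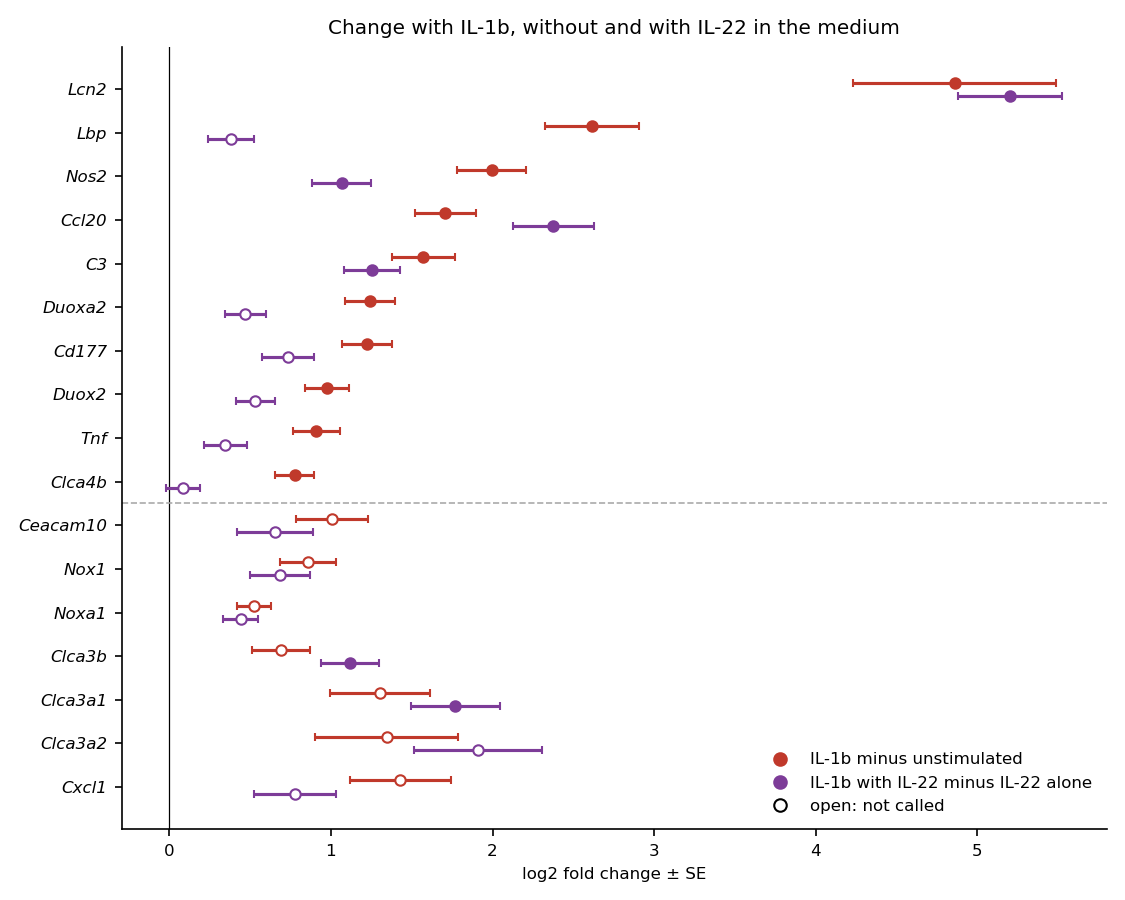
Points are log2 fold changes with their SE for the 10 called genes (above the dashed line) and 7 related genes chosen after their values were seen, for IL-1b alone against unstimulated in red and for IL-1b with IL-22 against IL-22 alone in purple, with filled points for called changes. Lcn2, Nos2, Ccl20 and C3 are filled in both settings, and Lbp and Clca4b have the widest gaps relative to their SE.

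Compared directly, libraries with IL-1b and with IL-22 differed in 1753 genes higher (12.5%) and 1920 lower (13.7%) with IL-1b. Ccl20 was the called gene with the largest excess with IL-1b: it was 3.49 ± 0.23 higher than with IL-22 (adjusted p = 4.16e-07), where its mean was 4.21 CPM. Lcn2 and Cd177 were also higher with IL-1b, by 1.93 ± 0.42 (adjusted p = 0.00431) and 1.28 ± 0.16 (6.66e-05). Lbp, Clca4b, Duox2 and Duoxa2 were lower with IL-1b than with IL-22, with differences of -2.20 ± 0.17, -1.60 ± 0.11, -0.84 ± 0.13 and -0.81 ± 0.13 and adjusted p from 5.78e-07 to 0.00069. Nos2, C3 and Tnf were not called, with differences of 0.10 ± 0.18, 0.26 ± 0.18 and -0.12 ± 0.14. Nox1 was 1.22 ± 0.18 higher with IL-1b than with IL-22 (adjusted p = 0.000286).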

How the data were processed

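Gene counts were used as the authors deposited them: 1 table of whole-number counts for 35869 gene symbols in 12 libraries of polyA RNA made with a stranded kit, per the labels' protocols. The submitters' processing notes name the build mm10, and the sources used here give no aligner, counting program or strand setting. All 12 libraries were fitted with 1 mean per group (edgeR 4.0.16, TMM scaling, filterByExpr, quasi-likelihood F test, 8 residual degrees of freedom), and p-values were adjusted by Benjamini-Hochberg over all genes tested. DESeq2 1.42.0 and the other alternatives are given in the closing section.

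Named genes were all called genes and, in each direction, the leading genes called by DESeq2 or called only without IL-1b replicate 1. Clone-type symbols, such as those ending in Rik, were passed over among the latter 2 kinds. To these came a list of cytokine-response genes, the genes with the smallest p among those not called, leukocyte markers, and leading members of each list. The members and the gene lists were chosen with earlier results of these data known. Positions come from GENCODE M21 (mm10), matched by symbol for 26762 symbols and by synonym for 547. This gave positions for 168 of the 169 named genes, of which 55 overlap the exons of a neighbour. Promoter windows come from RefSeq. In the 6 libraries compared, 3 counts correspond to 0.499 to 0.569 CPM. Replicates differed by more than sampling noise (chi-square per degree of freedom of 1.65 to 3.74), so no file repeats another library's counts; this does not tell separate cultures from repeat preparations of one. Same-numbered unstimulated and IL-1b libraries did not deviate together (r of -0.0302, 0.0524 and -0.0531 across genes), so the numbers were not treated as pairs.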

Additional observations from a re-analysis of the deposited data

How the results depend on the processing

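Of the 10 genes called with IL-1b, 8 were called under all 21 alternatives, with DESeq2, other scalings, other filters, the replicate block, 6 libraries only, removal of the trend on counts per exon base, and libraries left out. Clca4b kept its call in 15 and Tnf in 12, and no call changed sign. The count of 10 became 32 with DESeq2 (22 higher, 10 lower), 212 with every gene of 1 count or more tested (156 higher, 56 lower), and 9 to 28 with 1 library left out, the 28 without unstimulated replicate 3. Without IL-1b replicate 1 the count of 9 became 17 with DESeq2, 157 with no filter (78 higher, 79 lower), and 5 to 18 with a further library left out. The count of 11 for IL-1b added to IL-22 became 87 with DESeq2, 336 with no filter, 7 with the replicate block, 6 with only the libraries compared, 5 without unstimulated replicate 1 and IL-1b replicate 1 together, and 3 to 72 with 1 library left out. The difference between settings, 0 genes, became 4 with DESeq2, 50 with no filter, and 0 to 1 with 1 library left out. The cause was not tested. For IL-1b against unstimulated, the replicate block gave 8 calls (7 without IL-1b replicate 1), and the same-numbered libraries share only a number; the block reversed no direction. Genes under about 3 counts per library, such as Csf2 and Il6, could not be read at this depth.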
